A study of Mus musculus with 12 samples.

Results

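The livers of mice fed a high-fat, high-cholesterol, high-fructose (HFCF) diet were compared between 3 libraries labelled HuRHep-/- and 3 libraries labelled WT. These are 6 of the 12 libraries of the study, the other 6 coming from chow-fed livers, and they were taken by diet label alone. The members are the 14295 genes, of 22709 listed in the HFCF count table, that had enough counts to be tested. According to the labels, the mice were C57BL/6N males of 4 to 6 months that carried the floxed Elavl1 allele on both chromosomes (HuR flox/flox), in both groups alike. HuRHep-/- mice received AAV8-Tbg-Cre, an adeno-associated virus whose Cre is driven by the hepatocyte-specific Tbg promoter. WT mice received AAV8-Tbg-null, the same kind of virus without Cre. All 6 then had the HFCF diet (40 kcal% fat, 2% cholesterol and 20 kcal% fructose) for 16 weeks, and RNA was taken from whole liver, so every other liver cell type was measured too, and that promoter does not drive Cre in them. The study's methods give another model, a cross with Alb-Cre mice, at an age below the 16 weeks of this diet, and describe no HFCF feeding. The model of the labels is therefore used here, and nothing in the counts tests it. Each library was taken to be 1 mouse, which the labels do not state, so p-values measure the spread between these libraries.

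Elavl1 encodes HuR, an RNA-binding protein that attaches to U-rich and AU-rich stretches of messenger RNA, often in the 3' untranslated region, and in many transcripts slows decay or aids translation. In liver it is known for a part in lipid homeostasis and in the response to injury. A diet of this kind brings on fatty liver in mice. Male and female mouse livers differ in the expression of many secreted and drug-metabolizing proteins, a difference set mainly by the pattern of growth hormone release and carried in hepatocytes by STAT5b. Values below are normalized counts, which are reads counted on a gene scaled to a common library size, and fold changes are on the log2 scale as HuRHep-/- over WT, each with its standard error (SE) over 3 libraries per group. A gene passed when its adjusted p from limma, corrected over all 14295 genes, was at most 0.05, and was called when the fold change was also at least 1.5 and each group summed to at least 10 counts. The values of single libraries are given as WT replicates 1, 2 and 3 against HuRHep-/- replicates 1, 2 and 3, and a range in place of them is the lowest and highest of a group. Where a gene is said to rise or fall by a value, that value is on the log2 scale. For a list of genes, the square brackets after its counts hold first the counts without WT replicate 3, and then the lowest and highest counts over the 5 fits that left out 1 other library. A list is set beside the share of all genes that passed, 2.81% higher and 4.19% lower. In the fits behind the brackets that share was 4.67% higher and 4.1% lower without WT replicate 3, and 0.0568% to 2.1% higher and 0.169% to 2.94% lower without 1 other library.

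The targeted gene went against the labels. Elavl1 (chr8:4285382-4325413, minus strand, GRCm38) had 892, 892 and 995 in WT replicates 1 to 3 and 1187, 1178 and 1238 in HuRHep-/- replicates 1 to 3. All 3 livers labelled HuRHep-/- lay above all 3 labelled WT, a rise of 1.30-fold (log2 fold change 0.38 ± 0.071 SE, adjusted p = 0.0326). The two-sided exact permutation test over the 6 libraries gave p = 0.1, the smallest that 3 against 3 allows. The passing of Elavl1 depended on single libraries, since it held without WT replicate 3 (0.44, adjusted p = 0.0290) and was lost without any one of the other 5. In chow livers the contrast had the same direction (0.40 ± 0.070, adjusted p = 0.0254). Counts were summed over the whole gene, so they do not show whether the floxed exon was read, and the other cells of the liver also contribute. Groups are therefore named by their labels throughout, and every direction below is one between libraries labelled HuRHep-/- and libraries labelled WT.

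Ccl25, a chemokine gene on the plus strand that begins where Elavl1 begins (chr8:4325210-4360020; its first exons overlap those of Elavl1 on the opposite strand), was singled out after its values were seen. Its normalized counts were 191, 139 and 192 in WT replicates 1 to 3 and 74.9, 67.4 and 64.3 in HuRHep-/- replicates 1 to 3, without overlap between groups. Ccl25 fell (log2 fold change -1.32 ± 0.17 SE, adjusted p = 0.0173) and passed in 2 of the 6 fits that left out 1 library. The overlap covers 1.97% of the exon bases of Elavl1 and 2.74% of those of Ccl25. The labels give alignment on the reverse strand, and whether reads of such a pair were kept apart in the counts was not tested. In chow livers the Ccl25 difference was -0.49 ± 0.15, adjusted p = 0.102.

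Words of the kind that HuR binds were looked up in the 3' untranslated regions of GENCODE transcripts, to show what such a word looks like in genes that moved and how common it is. The word searched was TATTTAT, the DNA form of UAUUUAU, on the transcript strand, in the longest 3' untranslated region of each gene. The longest Elavl1 region holds 8 overlapping or separate copies in 4218 bases, and windows of up to 29 bases around the first copy are shown for Elavl1, for 3 genes described below that fell and for 1 that rose, with the word in capitals.
Elavl1: gtcatgaaaatTATTTATttatttattta
Gnai1: ttaatcagcttTATTTATgttcctgcccc
D3Ertd751e: ctacttgggttTATTTATactagaagact
Mcur1: ttcatgcatatTATTTATttctgtgcaaa
Cyp2a4: aaagtagatatTATTTATggca
The word occurred in 29.5% of the 13227 tested genes with an annotated 3' untranslated region, in 19.6% of the 291 called higher and in 23.6% of the 191 called lower. These regions had a median of 1152 bases over all genes, 870.0 bases among genes called higher and 1025 bases among genes called lower. Per kilobase the word occurred 0.285, 0.230 and 0.268 times, in the same order. A match is a description and does not show binding.

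The 6 libraries held 30071731 to 35949203 counted reads. On the first principal component of log2 CPM, which held 55.2% of the variance, the 3 HuRHep-/- libraries lay close together at 36.8, 26.6 and 35.8. The WT libraries were spread from -62.5 for replicate 2 through -27.4 for replicate 1 to -9.3 for replicate 3. WT replicate 3 had a mean correlation of 0.978 with its own group and 0.977 with the other group, and among WT libraries it lay nearest to the HuRHep-/- libraries. The mean correlation with the own group was 0.9816, 0.9777 and 0.9784 for WT replicates 1, 2 and 3. By that measure WT replicate 2, not WT replicate 3, was the WT library least like its group. Whether WT replicate 3 belongs to the group of its label was not tested, so WT as labelled may not mean the same in all 3 libraries.

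**Figure D1:**
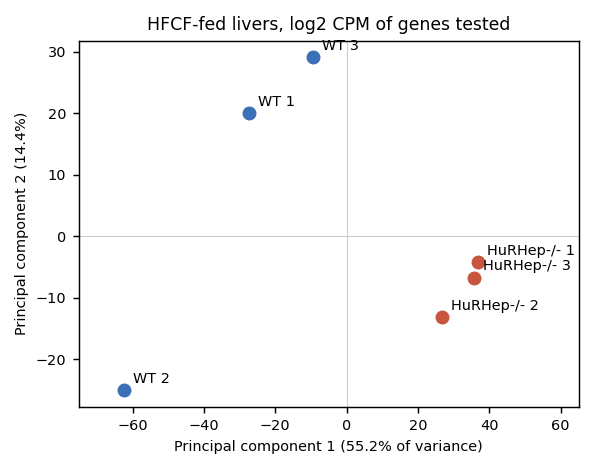
Positions of the 6 HFCF libraries on the first 2 principal components of log2 CPM over 14295 genes (horizontal axis, 55.2% of the variance; vertical axis, 14.4%; blue points, WT; red points, HuRHep-/-; numbers are replicates). The HuRHep-/- libraries lie together on the right and the WT libraries are spread on the left, with WT replicate 3 nearest to them.

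In all, 525 genes were called. Of these, 304 were higher in livers labelled HuRHep-/- (2.13% of the genes tested) and 221 were lower (1.55%). At any fold, 401 genes passed higher (2.81%) and 599 passed lower (4.19%). The groups did not overlap for 5305 genes (37.1%), all 525 called genes among them, and 4238 genes had an unadjusted p under 0.05. The median log2 fold change of all genes was -0.0093. Without WT replicate 3, 551 genes were called higher (3.88% of 14195 genes tested) and 274 lower (1.93%). Of the 525 genes called with 6 libraries, 418 were also called without it. The count of called genes fell to 40 without WT replicate 1, to 31, 32 and 102 without HuRHep-/- replicates 1, 2 and 3, and to 360 without WT replicate 2. Of the 525, 502 had enough counts to be tested in all 6 of these fits and 23 in 3 of them. Those 23 met the filter on low counts only through the group where they were higher, so they had to differ to be tested. In all 6 fits 22 passed, and 68 passed in none. A gene below that is not said to pass in all 6 fits did not pass, or was not tested, in at least 1 of them.

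**Figure D2:**
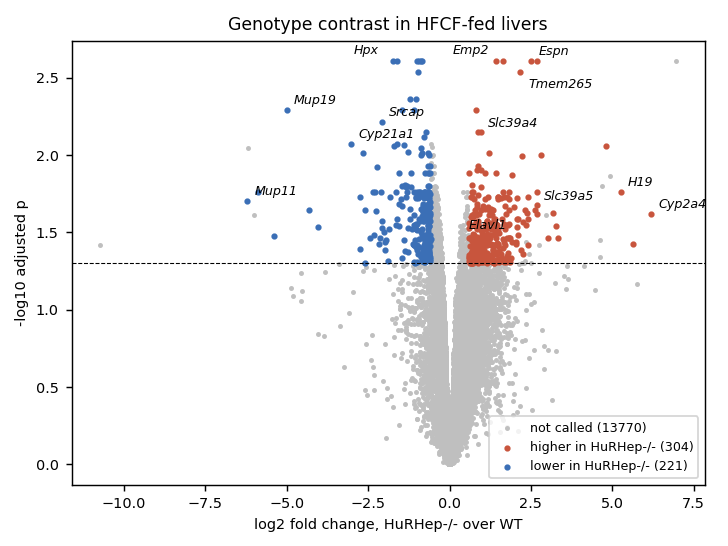
Log2 fold change of HuRHep-/- over WT in HFCF-fed livers (horizontal axis) against the -log10 of the adjusted p (vertical axis) for 14295 genes. Red points are the 304 genes called higher, blue points the 221 called lower, grey points the genes not called, and the dashed line is the adjusted p of 0.05; Mup19 and Mup11 lie far to the left and Cyp2a4 and H19 far to the right.

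The 6 largest falls among called genes whose normalized counts averaged 100 or more were in genes that male mouse livers express more than female livers. All 6 belong to a single family of close copies, the major urinary protein (Mup) genes Mup11, Mup17, Mup9, Mup19, Mup2 and Mup14. Of the 36 tested genes of a male-biased list, 0 passed higher and 11 passed lower (30.6%) [0 higher and 27 lower, 0 higher and 0 to 9 lower], with a median log2 fold change of -1.16, and 36 of 36 estimates were below 0. In 32 of the 36, WT replicate 3 was the lowest of the WT livers, beside 34.9% of all 14295 genes and 48.2% of the 599 that passed lower. The summed normalized count of the list was 1630391 and 1892878 in WT replicates 1 and 2, 960062 in WT replicate 3 and 594433 to 788759 in the HuRHep-/- livers. The male-biased list overlaps the Mup family, with Mup11 a member of both. Its counts and sums are therefore not separate from those of the Mup genes below, and members that share reads are not independent.

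Of 22 tested major urinary protein (Mup) genes, which encode small secreted lipocalins that carry pheromones, 11 passed lower, 22 of 22 estimates were below 0, and 18 passed lower without WT replicate 3. Without 1 of the other libraries 1 to 6 passed lower, the count being 1 without WT replicate 1, 6 without WT replicate 2, and 1, 2 and 2 without HuRHep-/- replicates 1, 2 and 3. WT replicate 3 was the lowest WT liver in 21 of the 22, which are not independent where they share reads. Transcripts of many of these genes are close copies, so the counts of those members are uncertain and their reads may be shared. The share of 31-base words of the longest transcript that occurs in other genes was 92.9% for Mup11, 86.2% for Mup17, 94.9% for Mup9, 99.8% for Mup14 and 100% for Mup19 and Mup2. It was lower for others, at 25.8% for Mup6 and 37.0% for Mup5. Windows of 60 bases from RefSeq promoters (GRCm38.p6) are printed to show how alike the Mup genes are near the start of transcription, for 6 of chromosome 4 that fell and, for contrast, for 2 Cyp2a genes of chromosome 7 that rose, all read in the direction of transcription. Each window was aligned on a TATA word in capitals, TATATAA in the Mup genes and TATAAA in the Cyp2a genes, and not on the annotated start. The first base of the word lies 2 bases before that start in Mup11 and 25 to 31 bases before it in the other 7 genes.
Mup11 (chr4:60662385-60662444, minus strand): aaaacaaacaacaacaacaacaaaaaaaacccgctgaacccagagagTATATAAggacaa
Mup17 (chr4:61595845-61595904, minus strand): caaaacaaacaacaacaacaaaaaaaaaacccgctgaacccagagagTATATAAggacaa
Mup9 (chr4:60421971-60422030, minus strand): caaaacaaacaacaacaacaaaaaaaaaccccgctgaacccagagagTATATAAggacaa
Mup19 (chr4:61782243-61782302, minus strand): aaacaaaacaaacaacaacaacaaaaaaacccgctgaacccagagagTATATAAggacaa
Mup2 (chr4:60139871-60139930, minus strand): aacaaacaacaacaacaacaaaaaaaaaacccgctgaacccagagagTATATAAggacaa
Mup6 (chr4:60003405-60003464, plus strand): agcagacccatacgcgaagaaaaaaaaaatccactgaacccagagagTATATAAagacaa
Cyp2a4 (chr7:26307116-26307175, plus strand): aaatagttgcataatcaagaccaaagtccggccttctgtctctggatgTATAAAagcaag
Cyp2a22 (chr7:26939403-26939462, minus strand): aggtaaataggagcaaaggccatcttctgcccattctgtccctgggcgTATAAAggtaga
On either strand TATATAA occurred in 3.24% and TATAAA in 13.62% of the 32851 promoters of 300 bases in the RefSeq table. The windows of the 6 Mup genes were identical at 70.0% to 98.3% of positions over the 15 pairs, of which the shared word is a part, and those of Cyp2a4 and Cyp2a22 at 46.7%. TTCNNNGAA, the core of sites that STAT5 binds, was searched in the promoters of 300 bases and found in 0 of these 6 Mup promoters and in 8.3% of all, which says only that these letters are not in those 300 bases.

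Mup11 had normalized counts of 39386, 42365 and 3559 in WT replicates 1 to 3 and 174, 432 and 195 in HuRHep-/- replicates 1 to 3. WT replicate 3 lay between the other WT livers and the HuRHep-/- livers, and the groups did not overlap. Mup11 fell (log2 fold change -6.21 ± 0.93 SE, adjusted p = 0.0198), and without WT replicate 3 the log2 fold change was -7.37, adjusted p = 0.00115. Mup19 had 95471, 88143 and 33040.1 against 1394, 2901 and 2071, and fell (log2 fold change -5.01 ± 0.43 SE, adjusted p = 0.00511). It was the one Mup gene to pass in all 6 fits that left out a library. Mup17 had 31185, 49752 and 5191 against 305, 603 and 207 (log2 fold change -5.89 ± 0.81 SE, adjusted p = 0.0174), and without WT replicate 3 the log2 fold change was -6.85. Without WT replicate 2 it was -5.59 for Mup11 and -5.23 for Mup17. In each of these genes WT replicate 3 was the lowest of the WT livers, yet above every HuRHep-/- liver. Mup9, Mup2, Mup14, Mup16, Mup6 and Mup5 also fell, with log2 fold changes of -5.39, -4.33, -4.04, -2.12, -2.44 and -2.14 and adjusted p of 0.0332, 0.0227, 0.0293, 0.0173, 0.0344 and 0.0345. Without WT replicate 3 Mup9 was at -6.66, Mup2 at -5.21 and Mup14 at -4.95, while Mup9 without WT replicate 2 was at -4.61 and Mup14 without WT replicate 1 at -3.44. Mup1 and Mup7 did not pass (-4.55 and -4.81, adjusted p = 0.0582 and 0.0813), and passed without WT replicate 3 (-5.89 and -6.44, adjusted p = 0.0147 and 0.0192). Without WT replicate 2 their log2 fold changes were -3.71 and -3.58. The groups overlapped for 3 of the 22 Mup genes, among them Mup20, with 501650, 269441 and 343397 against 240968, 322933 and 327132 (log2 fold change -0.29 ± 0.26 SE, adjusted p = 0.490).

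Some male-biased genes outside the Mup cluster passed lower as well, and others did not pass. Susd4, a regulator of complement, had 579, 719 and 319.8 against 82.2, 126 and 107 (log2 fold change -2.30 ± 0.30 SE, adjusted p = 0.0173). C6, a component of the terminal complement complex, had 10746, 9238 and 6065 against 2249, 3233 and 2627 (log2 fold change -1.66 ± 0.22 SE, adjusted p = 0.0173). In both, WT replicate 3 was again the lowest WT liver and the groups did not overlap. Cyp2d9, a testosterone 16-alpha-hydroxylase, had 61712, 54378 and 41134 against 22756, 25072 and 24294 (log2 fold change -1.11 ± 0.15 SE, adjusted p = 0.0173). The serpin gene Serpina3k and the glucuronosyltransferase gene Ugt2b38 also fell, by 1.23 and 1.99 on the log2 scale, at adjusted p of 0.0223 and 0.0413. The growth hormone receptor gene Ghr, whose own sex bias was not examined, fell by 0.43 (adjusted p = 0.0428). Ghr passed at a fold change under 1.5, as 13918 to 16967 against 10742 to 11756. Reads of Cyp2d9 and Ugt2b38 may be shared with other genes, which hold 46.4% and 52.9% of their 31-base words, chiefly Cyp2d12 and Ugt2b5. The male marker Cyp4a12a, with 62.2% of its words in other genes, chiefly Cyp4a12b, did not pass (log2 fold change -1.66 ± 0.60 SE, adjusted p = 0.122), with 23734, 8554 and 12245 against 1676, 6646 and 7018. Its log2 fold change was -0.99 without HuRHep-/- replicate 1 and -2.02 without HuRHep-/- replicate 3. Hsd3b5, a male-specific 3-ketosteroid reductase, had 2737, 7637 and 211 against 66.7, 201 and 302, so that WT replicate 3 lay within the HuRHep-/- range. Of the fits that left out 1 library, Hsd3b5 passed in the one without WT replicate 3 (adjusted p = 0.128 with 6 libraries and 0.0221 without). Elovl3, a fatty acid elongase, was like it (-0.49, adjusted p = 0.137 and 0.0396).

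**Figure D3:**
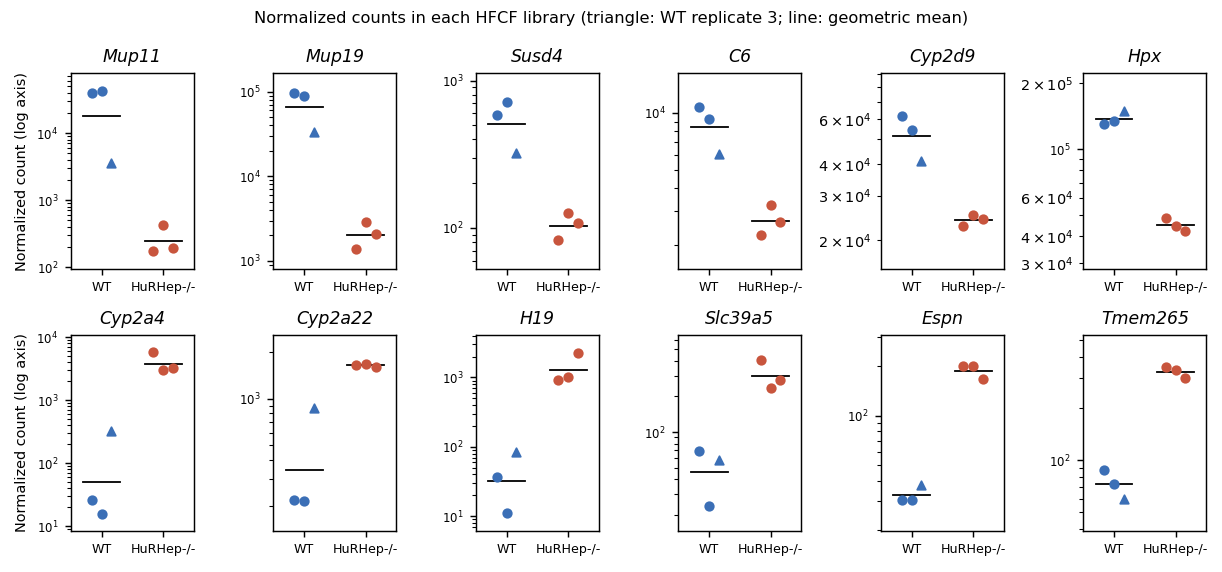
Normalized counts (vertical axes, log scale, one scale per gene) of 12 genes in each HFCF library, WT in blue and HuRHep-/- in red, with a triangle for WT replicate 3 and a line at the geometric mean of each group. In Mup11, Mup19, Susd4, C6, Cyp2d9, Cyp2a4 and Cyp2a22 the triangle lies between the other WT libraries and the HuRHep-/- libraries, and in Hpx, Slc39a5 and Tmem265 it does not.

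Of 30 tested genes of a female-biased list, 1 passed higher and 0 passed lower [7 higher and 0 lower, 0 to 2 higher and 0 to 1 lower], with a median log2 fold change of 0.29. The one that passed with 6 libraries was Cyp2a4, a testosterone 15-alpha-hydroxylase, which had 25.6, 15.8 and 317 against 5690.5, 2968 and 3214. WT replicate 3 had more than the other WT livers and less than every HuRHep-/- liver. Cyp2a4 rose (log2 fold change 6.20 ± 1.01 SE, adjusted p = 0.0239, and 7.53, adjusted p = 0.000547 without WT replicate 3), with a log2 fold change of 5.38 without WT replicate 2. Of the 31-base words of Cyp2a4, 58.1% occur in other genes, chiefly its close copy Cyp2a5, so that reads could be counted on either. Whether they were was not tested. Cyp2a5 had overlapping groups at 22891, 29783 and 34651 against 34934, 30684 and 22373 (log2 fold change 0.0072 ± 0.20 SE, adjusted p = 0.987). Cyp2b9, a female-specific P450 of the list, had 77.9, 22.6 and 1452 against 1527, 842 and 1080.2. It did not pass with 6 libraries (adjusted p = 0.181) and passed without WT replicate 3 (0.0135). Outside the list, Cyp2a22 had 219, 213 and 862 against 1652, 1668 and 1609 and rose (log2 fold change 2.26 ± 0.50 SE, adjusted p = 0.0439, and 2.94, adjusted p = 0.000106 without WT replicate 3).

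Among the 22 called genes that passed in every fit leaving out 1 library, a set singled out after its values were seen, 15 were lower and 7 higher in livers labelled HuRHep-/-. Hemopexin (Hpx, chr7:105591613-105600137), the plasma protein that binds free heme, had 130449, 133978 and 149433 against 48526, 44555 and 42152. The WT livers held 3.06-fold more and the groups lay far apart (log2 fold change -1.61 ± 0.11 SE, adjusted p = 0.00246). WT replicate 3 was the highest of the 6 for this gene. Dlst, a subunit of the 2-oxoglutarate dehydrogenase complex, had 7127, 7668 and 7179 against 3833, 3695 and 3431 (log2 fold change -1.004 ± 0.067 SE, adjusted p = 0.00246). Kyat3, a kynurenine aminotransferase, had 5587, 5375 and 5611 against 3099.7, 3029 and 3073 (log2 fold change -0.85 ± 0.053 SE, adjusted p = 0.00246). In both genes the spread within a group was small beside the gap between groups.

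Of the same 22 genes, Srcap, the ATPase of a chromatin remodelling complex, had 909.6, 802 and 573 against 168, 208 and 159.7 (log2 fold change -2.07 ± 0.19 SE, adjusted p = 0.00610). Its neighbour Tmem265 moved the other way, with 87.8, 73.3 and 59.7 against 348, 335 and 300 (log2 fold change 2.16 ± 0.16 SE, adjusted p = 0.00291). Both lie on the plus strand of chromosome 7 (Srcap, chr7:127511983-127561219; Tmem265, chr7:127561390-127566940), and an overlapping gene model, Gm42715, covers 61.7% of the exon bases of Srcap and 100% of those of Tmem265, so their counts are uncertain. Ddx23, a splicing helicase, Tnpo2, a nuclear import receptor, and Mcur1, a regulator of mitochondrial calcium uptake, fell by 0.98, 1.04 and 0.88 on the log2 scale. Ptgr2, a prostaglandin reductase, and Fyco1, an adaptor of autophagosome transport, fell by 1.23 and 1.08. Mreg, D3Ertd751e, Nat8f5, Tmem243 and the pseudogene Tmem250-ps fell by 1.26, 1.47, 1.62, 0.94 and 1.73. The adjusted p of these 10 genes lay between 0.00246 and 0.00953. The other genes that rose were Espn, an actin-bundling protein, with 30.6, 30.5 and 37.5 against 201, 199 and 167 (log2 fold change 2.51 ± 0.17 SE, adjusted p = 0.00246), and Emp2, an epithelial membrane protein, with 218, 209.8 and 241 against 573, 659 and 583 (log2 fold change 1.44 ± 0.10 SE, adjusted p = 0.00246). Gm12195, Plcxd1, Card10 and Ephb4, the venous receptor of ephrin-B2, rose by 2.70, 1.65, 0.86 and 0.80 (adjusted p = 0.00246, 0.00247, 0.00714 and 0.00511).

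Other called genes had varied roles. Cyp21a1, the steroid 21-hydroxylase, had 169, 238 and 130 against 17.4, 18.0 and 29.2 (log2 fold change -3.02 ± 0.30 SE, adjusted p = 0.00844), and shares 35.9% of its 31-base words with other genes, chiefly the pseudogene Cyp21a2-ps. Sult5a1, a sulfotransferase, C730036E19Rik, a transcript of unknown role, and Gnai1, an inhibitory G protein subunit, fell by 2.75, 2.35 and 2.26 on the log2 scale (adjusted p = 0.0407, 0.0173 and 0.0229). Gnai1 ranged over 115 to 280 in the WT livers and 26.5 to 47.7 in the HuRHep-/- livers. Slc39a5, a zinc importer, had 69.1, 23.7 and 58.6 against 407, 234 and 277 (log2 fold change 2.69 ± 0.41 SE, adjusted p = 0.0210). Slc39a4, the intestinal-type zinc importer, had 1479.8, 1727 and 1874 against 3235, 3299 and 3343 (log2 fold change 0.97 ± 0.091 SE, adjusted p = 0.00714) and passed in 5 of the 6 leave-one-out fits. The groups did not overlap in either zinc importer, while the metallothionein genes Mt1 and Mt2, which zinc induces, overlapped (1354 to 6294 against 2421 to 12551 for Mt1 and 548 to 3261 against 1679 to 8062 for Mt2). Of the 9 tested genes of metallothioneins and zinc transport, 2 passed higher (22.2%) and 0 passed lower [2 higher and 0 lower, 0 to 2 higher and 0 lower], with a median log2 fold change of 0.18. Lrtm2, a leucine-rich repeat membrane protein, had 3.95, 3.38 and 98.4 against 676, 664 and 459.8 (log2 fold change 5.62 ± 1.15 SE, adjusted p = 0.0376). WT replicate 3 stood above the other WT livers in Lrtm2. The log2 fold change was 7.16, adjusted p = 0.000214 without that library, the one leave-one-out fit in which Lrtm2 passed, and 4.92 and 4.82 without WT replicates 1 and 2. In the fit without WT replicate 3, Lrtm2 rested on WT raw counts of 4 and 3. These are too few for a call and leave the size of the fold imprecise. Enho, which encodes the secreted peptide adropin, had 44.4, 108 and 59.7 against 262, 314 and 273 (log2 fold change 2.09 ± 0.31 SE, adjusted p = 0.0190). Mmd2 rose by 2.09, the tetraspanin gene Tspan8 by 2.06, and the elastic fibre genes Mfap4 and Eln by 1.90 and 1.81 (adjusted p = 0.0259, 0.0290, 0.0466 and 0.0280). Without WT replicate 3, Mfap4 no longer passed (adjusted p = 0.0624).

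Bile acid synthesis turns cholesterol into bile acids, and of 20 tested genes of this list 0 passed higher and 5 passed lower (25%) [0 higher and 5 lower, 0 higher and 0 to 3 lower], with a median log2 fold change of -0.26. Cyp8b1, the sterol 12-alpha-hydroxylase that sets the share of cholic acid, had 13363, 11279.6 and 12093 against 4839, 8006 and 4845 (log2 fold change -1.09 ± 0.19 SE, adjusted p = 0.0285). Cyp27a1, which begins the alternative pathway, had 16286, 21228 and 17458 against 11267, 11841 and 11546 (log2 fold change -0.66 ± 0.10 SE, adjusted p = 0.0223). The groups did not overlap in either gene. Cyp46a1, a cholesterol 24-hydroxylase, had 258, 233 and 207 against 59.4, 85.4 and 69.2 (log2 fold change -1.71 ± 0.17 SE, adjusted p = 0.00873) and passed in 5 of 6 leave-one-out fits. Slc27a2, an acyl-CoA synthetase, and Baat, which conjugates bile acids, fell by 0.68 and 0.41 (adjusted p = 0.0345 and 0.0440). Cyp7a1, the rate-limiting enzyme, had 2814, 11008 and 6028 against 2196, 5038 and 2686 with overlap (log2 fold change -0.88 ± 0.50 SE, adjusted p = 0.279). Cyp7b1, the oxysterol 7-alpha-hydroxylase, had 2378 to 8655 in the WT livers and 2119 to 3226 in the HuRHep-/- livers, and its adjusted p was 0.231 with 6 libraries and 0.0393 without WT replicate 3.

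Among 20 tested transport genes for bile acids, phospholipids and sterols, 1 passed higher and 3 passed lower (15%) [4 higher and 5 lower, 0 higher and 0 to 5 lower], with a median log2 fold change of -0.17. The uptake carrier genes Slco1b2 and Slco2b1 and the exporter gene Abcg2 fell by 0.59, 0.46 and 0.38 (adjusted p = 0.0216, 0.0432 and 0.0268). Slco1a4, another uptake carrier, rose, with 656, 540.3 and 1038 against 1392, 1356 and 1709 (log2 fold change 1.04 ± 0.23 SE, adjusted p = 0.0437). The bile salt export pump gene Abcb11 (-0.53, adjusted p = 0.0516) and the uptake carrier gene Slc10a1 (-0.45, adjusted p = 0.0939) did not pass with 6 libraries. Of 14 genes that sense bile acids and oxysterols, 0 passed higher and 0 passed lower [0 higher and 0 lower, 0 higher and 0 lower], with a median log2 fold change of 0.0, and the receptor gene Nr1h4 had 4314 to 4845 against 3471 to 4021 (adjusted p = 0.112). Of 30 genes of cholesterol synthesis and uptake, 0 passed higher and 1 passed lower [0 higher and 2 lower, 0 higher and 0 lower], with a median log2 fold change of -0.21, and 25 estimates were below 0.

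Of 44 tested genes of fatty acid oxidation and ketogenesis, 0 passed higher and 11 passed lower (25%) [0 higher and 8 lower, 0 higher and 0 to 9 lower], with a median log2 fold change of -0.26, and 39 estimates were below 0. Slc25a20, the mitochondrial carnitine-acylcarnitine carrier, had 6266, 5199.9 and 6123 against 3534, 3679 and 3959 (log2 fold change -0.65 ± 0.088 SE, adjusted p = 0.0173). The groups did not overlap. Acad11, Eci1, Decr2, Pex11a and Acot1, all genes of fatty acid or acyl-CoA handling, fell by 0.40, 0.43, 0.45, 0.84 and 1.37 (adjusted p = 0.0208, 0.0264, 0.0301, 0.0430 and 0.0420). Without WT replicate 3, Pex11a and Acot1 did not pass (adjusted p = 0.0680 and 0.0642). Cpt1a, the rate-limiting carnitine palmitoyltransferase, was at 15928 to 17511 in the WT livers and 12183 to 14669 in the HuRHep-/- livers and did not pass (adjusted p = 0.0553). Cyp4a14, a fatty acid omega-hydroxylase induced through PPAR-alpha, had 2077 to 10372 and 7136 to 13495, with overlap (adjusted p = 0.323), and Vnn1 had a log2 fold change of -0.94 (adjusted p = 0.0527).

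Genes that make and store fat passed at shares near or below those of all genes. The shares were 2.94% higher for lipogenesis and fructose use and 4.0% lower for lipid droplets and lipolysis. Of 34 genes of lipogenesis and fructose use, 1 passed higher and 0 passed lower [1 higher and 3 lower, 0 higher and 0 lower], with a median log2 fold change of -0.12. The one that passed was Khk, the fructose kinase, at 18625 to 19639 in the WT livers and 22529 to 25519.9 in the HuRHep-/- livers (log2 fold change 0.34 ± 0.076 SE, adjusted p = 0.0451). Fasn, the fatty acid synthase, had 20167, 10533 and 13753 against 35702, 19848 and 12586, and Scd1, the stearoyl-CoA desaturase, had 679180 to 752425 against 412805 to 720299, both with overlap (adjusted p = 0.384 and 0.527). Of 25 genes of lipid droplets and lipolysis, 0 passed higher and 1 passed lower [1 higher and 0 lower, 0 higher and 0 to 3 lower], with a median log2 fold change of -0.12. Fitm2, which aids droplet formation, had 2797 to 3518 against 1900.2 to 2462 (log2 fold change -0.60 ± 0.12 SE, adjusted p = 0.0387) and did not pass without WT replicate 3 (adjusted p = 0.0680). The droplet coat gene Plin2 had 19326 to 28337 against 24085 to 25857, with overlap. Of 23 genes of apolipoproteins and lipoprotein secretion, 1 passed higher and 3 passed lower (13%) [2 higher and 2 lower, 0 to 2 higher and 0 to 3 lower], with a median log2 fold change of -0.14. Apob, the structural protein of very-low-density lipoprotein, had 108588, 101244 and 108338 against 76172, 78205 and 71389 (log2 fold change -0.50 ± 0.10 SE, adjusted p = 0.0345), and did not pass without WT replicate 3 (adjusted p = 0.0571). Mttp, which loads lipid on Apob, had 8547, 8009 and 8181 against 6706, 6609 and 6152 (log2 fold change -0.35 ± 0.063 SE, adjusted p = 0.0300). Sar1b, a GTPase of the secretory pathway, fell by 0.32 (adjusted p = 0.0268). Apom, which carries sphingosine-1-phosphate, rose, at 2439 to 3313 against 3980.3 to 4476 (log2 fold change 0.62 ± 0.12 SE, adjusted p = 0.0346).

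Of 67 tested genes of phase I oxidation and ester hydrolysis, 3 passed higher (4.48%) and 11 passed lower (16.4%) [8 higher and 11 lower, 0 to 3 higher and 0 to 8 lower], with a median log2 fold change of -0.24. Cyp2d9 was among those that fell. Cyp2c54, a P450 of the arachidonic acid oxidizing family, had 5056, 6802 and 4246 against 1294, 1498 and 2594 (log2 fold change -1.62 ± 0.28 SE, adjusted p = 0.0259). The carboxylesterase gene Ces3a and the P450 gene Cyp2c50 fell by 1.02 and 0.55 (adjusted p = 0.0186 and 0.0186). Cyp2c54 shares 42.3% of its 31-base words with other genes, chiefly Cyp2c50, and Ces3a 42.6%, chiefly with Ces3b, so their counts are uncertain. Cyp2e1, an oxidase of ethanol and acetaminophen, had 289540, 323192 and 282787 against 157119, 160544 and 213524 (log2 fold change -0.77 ± 0.17 SE, adjusted p = 0.0432). Cyp2e1 did not pass in any fit that left out 1 library (without WT replicate 3, adjusted p = 0.0578). Cyp3a11 and Cyp1a2, marker genes of the receptors PXR and AhR, overlapped between groups (37589 to 94809 against 48145 to 56142, and 6756 to 13870.5 against 6689.9 to 7355).

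Conjugating enzymes make compounds water-soluble. Of 28 genes of glucuronidation and sulfation, 0 passed higher and 6 passed lower (21.4%) [1 higher and 6 lower, 0 to 1 higher and 0 to 5 lower], with a median log2 fold change of -0.37. Ugt1a1, the bilirubin glucuronosyltransferase, had 23160.4, 22279 and 22183 against 13591, 13197 and 16076 (log2 fold change -0.66 ± 0.090 SE, adjusted p = 0.0173), and shares 58.5% of its 31-base words with other genes, chiefly Ugt1a2. Ugt3a2 had 11750.4, 12133 and 12383 against 7146, 7790 and 6858 (log2 fold change -0.74 ± 0.069 SE, adjusted p = 0.00714). In both genes every WT liver lay above every HuRHep-/- liver. Sult2a8, a bile acid sulfotransferase, had 14619, 23449 and 10009.7 against 2278, 3925 and 5210.3 (log2 fold change -2.07 ± 0.37 SE, adjusted p = 0.0295). Ugt2b1 did not pass with 6 libraries (-0.85, adjusted p = 0.0761), and passed without WT replicate 3 and without WT replicate 2 (adjusted p = 0.0420 and 0.0373). Of 24 glutathione transferase genes, 2 passed higher (8.33%) and 2 passed lower (8.33%) [3 higher and 2 lower, 0 to 2 higher and 0 to 2 lower], with a median log2 fold change of 0.10. Gstp3 and Gstt2 rose by 0.90 and 0.74, and Gstt1 and Gstk1 fell by 0.39 and 0.42 (adjusted p = 0.0239, 0.0375, 0.0228 and 0.0302). Of 27 NRF2 targets and glutathione synthesis genes, 0 passed higher and 1 passed lower [0 higher and 1 lower, 0 to 1 higher and 0 to 1 lower], with a median log2 fold change of 0.093. Cat, the catalase gene, had 73541 to 82939 against 50357 to 57187 (log2 fold change -0.52 ± 0.10 SE, adjusted p = 0.0325). Nfe2l2, which encodes NRF2, had 2193 to 2477 against 2698 to 2832 and did not pass (adjusted p = 0.0638), and its target Nqo1 overlapped between groups. Of 21 genes of mitochondrial fusion, fission and biogenesis, 0 passed higher and 3 passed lower (14.3%) [0 higher and 4 lower, 0 higher and 0 to 3 lower], with a median log2 fold change of -0.15. Mfn2, an outer membrane fusion protein, had 4970.1, 5781 and 5148 against 4214, 3990.3 and 3938 (log2 fold change -0.39 ± 0.074 SE, adjusted p = 0.0338). Bnip3, a mitophagy receptor, and Mief2, a recruiter of the fission protein Drp1, fell by 0.75 and 0.52 (adjusted p = 0.0173 and 0.0254). Opa1 (-0.21, adjusted p = 0.0761) and Dnm1l, which encodes Drp1 (-0.14, adjusted p = 0.289), did not pass.

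Acute phase genes, which the liver turns up or down in inflammation, passed in both directions. Of 36 tested, 3 passed higher (8.33%) and 3 passed lower (8.33%) [7 higher and 2 lower, 0 to 4 higher and 1 to 3 lower], with a median log2 fold change of 0.11. Hpx and Serpina3k were among those that fell, with Apcs (-0.43, adjusted p = 0.0420). Itih3, a hyaluronan-binding plasma protein, had 11934, 17568 and 13176 against 25984, 25208 and 24513 (log2 fold change 0.85 ± 0.14 SE, adjusted p = 0.0241), Hamp2, of the hepcidin family, rose by 1.32 (adjusted p = 0.0301) and Stat3 rose by 0.53 (adjusted p = 0.0423). Orm2 and Lcn2, secreted proteins of inflammation, had WT replicate 3 apart from the other WT livers. Orm2 had 524, 479 and 1406 against 1992, 1891 and 1898 and Lcn2 had 482, 474 and 1749 against 1973, 1794 and 2894. Neither passed with 6 libraries (adjusted p = 0.0615 and 0.0928), and both passed without WT replicate 3 (0.000482 and 0.00751). Saa1 was like them (adjusted p = 0.210 and 0.0380).

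Of 38 tested interferon-stimulated genes, the antiviral program of most cell types, 7 passed higher (18.4%) and 0 passed lower [8 higher and 0 lower, 0 to 3 higher and 0 lower], with a median log2 fold change of 0.43, and 38 of 38 estimates were above 0, beside 6932 of all 14295 genes. Ifit3, an antiviral protein that shares 61.8% of its 31-base words with other genes, chiefly Ifit3b, had 435, 379 and 448 against 724, 695 and 620.5 (log2 fold change 0.69 ± 0.10 SE, adjusted p = 0.0186). Cxcl10, a chemokine that draws T cells, had 91.7, 62.0 and 123 against 217, 250.5 and 180.2 (log2 fold change 1.26 ± 0.26 SE, adjusted p = 0.0379). Isg15, Psmb8, Gbp2 and Mx1 rose by 0.80, 0.31, 0.83 and 1.02 (adjusted p = 0.0348, 0.0380, 0.0459 and 0.0481). The regulator Irf7 overlapped between groups (log2 fold change 0.27, adjusted p = 0.472). The summed normalized count of the list was 27806 to 29409.5 in the WT livers and 29023 to 38449 in the HuRHep-/- livers.

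Of 33 genes of the unfolded protein and integrated stress response, 1 passed higher and 3 passed lower (9.09%) [2 higher and 5 lower, 0 to 1 higher and 0 to 3 lower], with a median log2 fold change of -0.28. Atf5, a stress transcription factor, rose, with 11022, 10273 and 10244 against 18069, 17743 and 14523 (log2 fold change 0.67 ± 0.10 SE, adjusted p = 0.0186). The endoplasmic reticulum chaperone genes Canx and Pdia4 and the sensor gene Atf6 fell by 0.50, 0.95 and 0.33 (adjusted p = 0.0132, 0.0191 and 0.0271). The chaperone gene Hspa5 had a log2 fold change of -0.53 and did not pass (adjusted p = 0.104). Of 15 heat shock genes, 0 passed higher and 1 passed lower [0 higher and 1 lower, 0 higher and 0 to 1 lower], with a median log2 fold change of -0.031, and the one that passed was Dnaja1 (-0.39, adjusted p = 0.0238). Of 17 circadian clock genes, 0 passed higher and 2 passed lower (11.8%) [0 higher and 1 lower, 0 higher and 0 to 1 lower], with a median log2 fold change of -0.18. These were Cry1 and Nfil3 (-0.79 and -0.58, adjusted p = 0.0382 and 0.0341). Of 26 genes of the urea cycle, gluconeogenesis and glucose handling, 0 passed higher and 0 passed lower [0 higher and 0 lower, 0 to 1 higher and 0 lower], with a median log2 fold change of -0.071. Of 17 genes of HuR and other AU-rich element binding proteins, 1 passed higher and 0 passed lower [1 higher and 0 lower, 0 higher and 0 lower], with a median log2 fold change of -0.011, and Elavl1 was the one that passed. Of 18 immediate early genes, 0 passed higher and 1 passed lower [1 higher and 1 lower, 0 higher and 0 to 2 lower], with a median log2 fold change of 0.48, and the one that passed was Dusp1, a phosphatase of MAP kinases (-0.57, adjusted p = 0.0303).

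Of 16 tested fetal and dedifferentiation genes, 4 passed higher (25%) and 0 passed lower [5 higher and 0 lower, 0 to 3 higher and 0 lower], with a median log2 fold change of 1.23. H19, an imprinted long non-coding RNA of fetal liver, had 36.5, 11.3 and 84.4 against 919, 1012 and 2229 (log2 fold change 5.26 ± 0.69 SE, adjusted p = 0.0173). Its log2 fold change was 5.94 without WT replicate 3 and 4.51 without WT replicate 2. Igf2, the fetal growth factor next to it, had 20.7, 11.3 and 30.5 against 141, 81.6 and 95.5 (log2 fold change 2.38 ± 0.39 SE, adjusted p = 0.0238), and 76.0% of the 31-base words of Igf2 occur in other genes, chiefly the model Gm49394. The groups did not overlap in either gene. Dlk1, a fetal hepatoblast marker, had raw counts of 0, 0 and 6 against 34, 31 and 34. Dlk1 and Vil1 met the filter on low counts only through the HuRHep-/- livers, so they had to be higher to be tested. Of the 14 members without this pair, 3 passed higher (21.4%), and 4 did without WT replicate 3. The median of 1.23 includes the pair and was not computed without it. Cd24a, a progenitor surface marker, rose by 1.38 (adjusted p = 0.0423), and did not pass without WT replicate 3 (0.0538). Alpha-fetoprotein (Afp) had 56.4 to 73.0 against 65.5 to 85.9, with overlap (adjusted p = 0.402).

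Of 17 cholangiocyte and ductular genes, 6 passed higher (35.3%) and 0 passed lower [7 higher and 0 lower, 0 to 4 higher and 0 lower], with a median log2 fold change of 1.22. Krt19, a bile duct keratin, had 66.1, 68.8 and 42.2 against 153, 131 and 149 (log2 fold change 1.31 ± 0.22 SE, adjusted p = 0.0243). Its partner Krt7 had 83.9, 57.5 and 44.5 against 132, 153 and 194 (log2 fold change 1.39 ± 0.26 SE, adjusted p = 0.0323). Muc1, an apical mucin, had 40.4, 24.8 and 37.5 against 99.6, 81.6 and 136 (log2 fold change 1.61 ± 0.27 SE, adjusted p = 0.0259). The progenitor marker Prom1 rose by 1.02 (adjusted p = 0.0432). The tight junction gene Cldn6 also passed (adjusted p = 0.0269), on raw counts of 15, 9 and 5 against 57, 38 and 61, which leave the size of the fold imprecise. Another tight junction gene, Cldn4, had raw counts of 5, 1 and 4 against 32, 20 and 47. It met the filter on low counts only through the HuRHep-/- livers, so it had to be higher to be tested. Of the 16 members without it, 5 passed higher (31.2%), and 6 did without WT replicate 3. The median of 1.22 includes Cldn4 and was not computed without it. Epcam did not overlap between groups, at 40.6 to 86.8 against 132 to 277, and did not pass (adjusted p = 0.0502). The summed normalized count of the list was 21327 to 31438 in the WT livers and 38812 to 42315 in the HuRHep-/- livers. In RNA of whole liver, a change in the number of cells of a type and a change in RNA per cell cannot be told apart. Of 37 cell cycle and replication genes, 1 passed higher and 0 passed lower [9 higher and 0 lower, 0 to 1 higher and 0 lower], with a median log2 fold change of 0.78, and 34 estimates were above 0. Mcm5, a subunit of the replicative helicase, had 107, 80.1 and 211 against 622, 305 and 353 (log2 fold change 1.73 ± 0.40 SE, adjusted p = 0.0474). Ccnd1, the cyclin of the first growth phase, had 907, 534 and 1811 against 3805, 2874 and 2554, with adjusted p of 0.0530 with 6 libraries and 0.0172 without WT replicate 3. The proliferation markers Mki67 and Top2a had 19.2 to 89.8 against 100.3 to 129 and 19.2 to 61.2 against 111 to 146 and did not pass (adjusted p = 0.211 and 0.0682). WT replicate 2 was the lowest library for Mcm5, Ccnd1, Mki67 and Top2a.

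Markers of the other liver cells were read next. Of 37 stellate cell and collagen genes, 3 passed higher (8.11%) and 0 passed lower [12 higher and 0 lower, 0 to 9 higher and 0 lower], with a median log2 fold change of 0.77, and 34 estimates were above 0. Acta2, the smooth muscle actin of activated stellate cells, had 107, 58.7 and 90.2 against 247, 201 and 159.7 (log2 fold change 1.26 ± 0.26 SE, adjusted p = 0.0376), Tagln rose by 0.75 and the collagen cross-linking enzyme gene Loxl1 by 1.15 (adjusted p = 0.0399 and 0.0325). Col1a1, the main fibrillar collagen, had 1139, 180.5 and 1232 against 1775, 1315 and 2135 and did not pass (adjusted p = 0.211). WT replicate 2 stood far below the other WT livers for it. Timp1 passed without WT replicate 3 and not with it (adjusted p = 0.0426 and 0.125). Of 24 genes of recruited and lipid-associated macrophages, 1 passed higher and 0 passed lower [8 higher and 0 lower, 0 to 2 higher and 0 lower], with a median log2 fold change of 0.999. Cd9 passed (log2 fold change 1.05 ± 0.25 SE, adjusted p = 0.0491), while the osteopontin gene Spp1, Trem2 and Gpnmb did not (1.41, 0.72 and 1.12, adjusted p = 0.0684, 0.374 and 0.449). Without WT replicate 2 the log2 fold change was 0.15 for Trem2 and 0.049 for Gpnmb, and without WT replicate 3 it was 1.22 and 2.01.

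Of 17 resident Kupffer cell genes, 0 passed higher and 1 passed lower [3 higher and 1 lower, 0 to 1 higher and 0 to 1 lower], with a median log2 fold change of 0.36. The one that passed, lower, was C6, which is also on the male-biased list, and the Kupffer markers Clec4f and Adgre1 did not pass (0.33 and 0.61, adjusted p = 0.245 and 0.148). Of 27 endothelial genes, 3 passed higher (11.1%) and 0 passed lower [4 higher and 0 lower, 1 to 2 higher and 0 lower], with a median log2 fold change of 0.20. Beside Ephb4 these were Flt4, a lymphatic and sinusoidal growth factor receptor, and Cd34 (0.74 and 1.11, adjusted p = 0.0193 and 0.0303). Of 24 T, B and NK cell genes, 0 passed higher and 0 passed lower [1 higher and 1 lower, 0 higher and 0 lower], with a median log2 fold change of 0.84, with 23 estimates above 0 and summed normalized counts of 1094 to 1644 in the WT livers and 1803 to 2059 in the HuRHep-/- livers. Of 8 tested neutrophil genes, 0 passed higher and 0 passed lower [0 higher and 0 lower, 0 higher and 0 lower], with a median log2 fold change of 0.60, and S100a8 had 12.4 to 14.8 against 21.4 to 32.3. The 5 red blood cell genes had a median of -0.03 with 0 passes. The 3 tested genes of pancreas, fat and muscle had 0 passes, and their summed normalized counts were 10137 in WT replicate 1, 2572 and 2554 in WT replicates 2 and 3 and 1316 to 1985 in the HuRHep-/- livers. Of 14 hepatocyte genes, which check the labelled tissue, 0 passed higher and 1 passed lower [0 higher and 0 lower, 0 higher and 0 to 1 lower], with a median log2 fold change of -0.10. Alb, the albumin gene, had 1633210 to 1706930 against 1490380 to 1579690 and Ahsg had 144524 to 207855 against 170429 to 201503, with no pass (adjusted p = 0.758 and 0.623). These hepatocyte markers were abundant in all 6 libraries. The part of a shift in cell types in the other results was not tested.

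**Figure D4:**
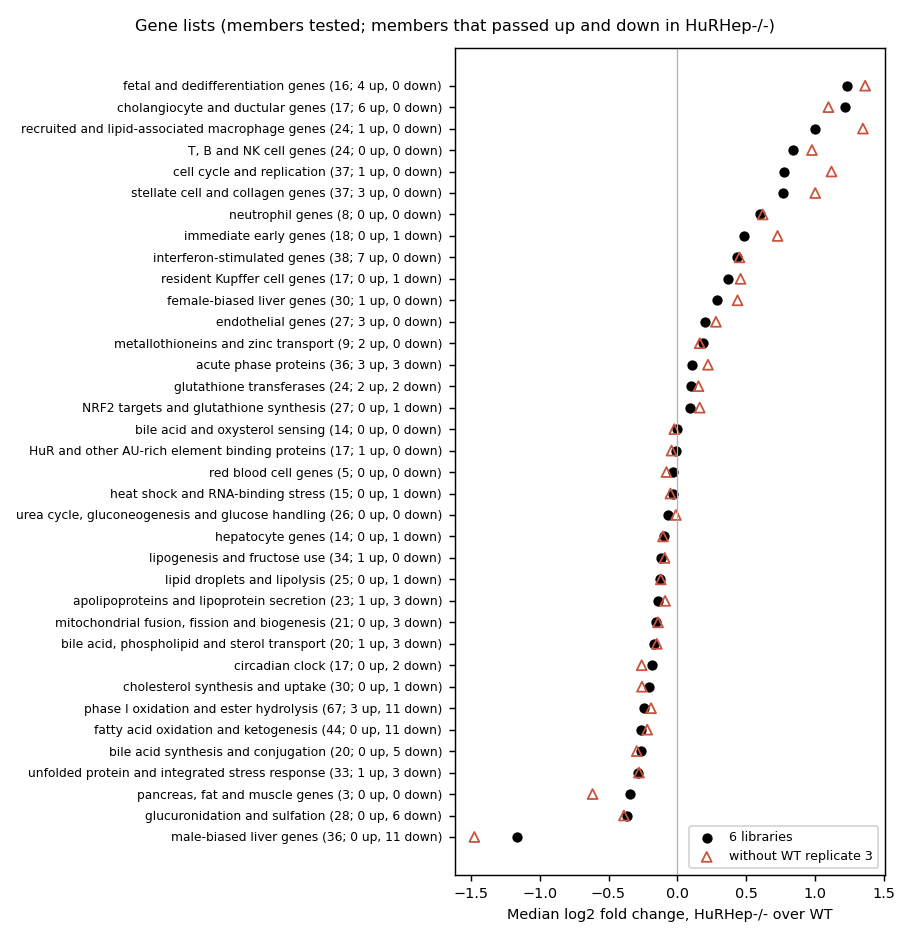
Median log2 fold change of HuRHep-/- over WT (horizontal axis) for 36 gene lists (vertical axis, with the members tested and the members that passed up and down with 6 libraries). Black points are from 6 libraries and open triangles from the fit without WT replicate 3. The male-biased list lies lowest, at -1.16, and the fetal and cholangiocyte lists highest, at 1.23 and 1.22. These 2 highest medians include Dlk1 and Vil1 (fetal) and Cldn4 (cholangiocyte), which had to be higher to be tested. The medians were not computed without these genes.

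The same contrast in chow livers was set beside that in HFCF livers, from other mice, to see where the diets differed. A limma interaction term was fitted to the 12 libraries for 14535 genes found in both tables. With all libraries, 0 genes (0%) passed at 0.05 after adjustment, beside 2123 with an unadjusted p under 0.05. The count was also 0 with another scaling (relative log expression) and with the replicate number as a block. Of the genes that averaged 100 or more normalized counts, Mup19, Dio1, Hectd2os, Slc17a4 and Slc39a4 had the smallest p, each with an adjusted p of 0.0715. Mup19 had a log2 fold change of -5.01 in HFCF livers and -0.33 ± 0.45, adjusted p = 0.703 in chow livers. Slc39a4 had 0.97 in HFCF livers and 0.083 ± 0.093, adjusted p = 0.632 in chow livers. Dio1, the deiodinase that activates thyroid hormone, had -0.38 (adjusted p = 0.0632) in HFCF livers and 0.81 ± 0.12, adjusted p = 0.0186 in chow livers. Slc17a4, an organic anion transporter, had 0.45 and -0.68 ± 0.12, adjusted p = 0.0233, and the antisense transcript Hectd2os had -0.13 and -1.58 ± 0.15, adjusted p = 0.00712.

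Without WT replicate 3 of the HFCF livers the interaction gave 40 genes, 28 more negative and 12 more positive in HFCF livers, of which 14 bear a Mup symbol, pseudogenes included, and 10 are on the male-biased list. The difference of Mup11 was -8.23 ± 0.69 SE (adjusted p = 0.00191), that of Mup19 -5.15 ± 0.64 (adjusted p = 0.0150) and that of Cyp2a4 6.21 ± 0.75 (adjusted p = 0.0150). In chow livers the contrast was 0.87 ± 0.45, adjusted p = 0.286 for Mup11 and 1.33 ± 0.56, adjusted p = 0.203 for Cyp2a4. Cyp2d9, C6 and Susd4 were also among the 40 (differences -1.18, -1.55 and -2.37). Other genes had the same direction in both diets without a passed difference. Tmem265 had 1.86 ± 0.15, adjusted p = 0.00459 in chow livers, Srcap -1.90 ± 0.19, adjusted p = 0.00712, Enho 1.70 ± 0.21, adjusted p = 0.0113, Mmd2 2.25 ± 0.31, adjusted p = 0.0127 and Hpx -0.92 ± 0.14, adjusted p = 0.0201. In the same order, the differences HFCF minus chow were 0.31 ± 0.22, -0.17 ± 0.28, 0.39 ± 0.41, -0.16 ± 0.53 and -0.69 ± 0.19 SE. A p that misses the threshold does not show equal effects. Each diet has its own count table, so diet and anything else that differed between the tables cannot be told apart.

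**Figure D5:**
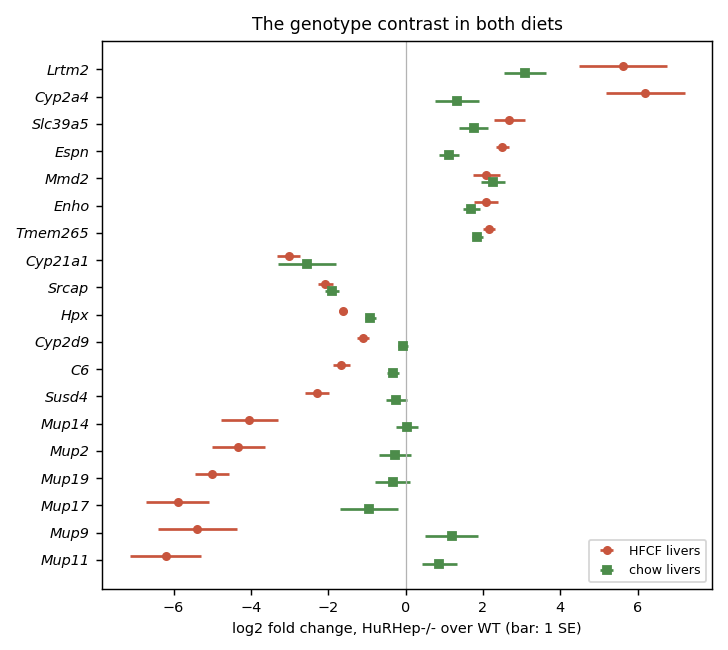
Log2 fold change of HuRHep-/- over WT (horizontal axis, bars of 1 SE) for 19 genes, in HFCF livers (red circles) and chow livers (green squares), each from its own fit of 3 against 3 libraries. The Mup genes lie far below 0 in HFCF livers and between -0.94 and 1.19 in chow livers, and Tmem265, Enho, Mmd2, Srcap and Cyp21a1 lie close together in both.

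How far WT replicate 3 decided single calls was read from genes named by rule. The 5 called genes with the largest adjusted p without it were Aqp4 (0.0838), a water channel gene, Cntrl (0.0805), Gpat3 (0.0775), a glycerol-phosphate acyltransferase gene, Kdsr (0.0779) and Hist1h4i (0.0763). Aqp4 had 286, 215 and 321 against 94.1, 173 and 135, so its groups did not overlap. Of the other genes named above, Baat, Khk, Stat3, Apcs, Prom1, Gbp2, Mx1 and Cry1 passed with 6 libraries and not without WT replicate 3, where their adjusted p was 0.0535 to 0.0682. In the other direction, 407 genes were called without WT replicate 3 alone. Those of them with the largest adjusted p in the 6-library fit were Serpina1e (34374, 100160 and 5560.2 against 9868, 19622 and 12577), a gene of the alpha-1-antitrypsin family, Bach2, Cyp2c38, Saa2 and Mogat1. For Saa2, an acute phase protein, the counts were 1464, 1971 and 3942 against 2579.9, 2827 and 3759, and for Mogat1, a monoacylglycerol acyltransferase, 309, 220 and 582 against 545, 462 and 419. In Serpina1e WT replicate 3 was below every HuRHep-/- liver and in Saa2 above every one, while the other WT livers lay on the opposite side. The counts of Serpina1e and Saa2 are uncertain, since 55.3% and 46.6% of their 31-base words occur in other genes.

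WT replicate 3 also stood outside the range of the other 5 libraries for some genes. Fos, an immediate early gene, had 220, 68.8 and 571 against 299, 244 and 300, and Gm17300, Eif4ebp3 and Orm3, an acute phase gene, were highest in it at 271, 1903 and 888. Igfbp5 and Igfbp6, insulin-like growth factor binding proteins, were lowest in it at 301 and 24.6, beside 906 to 1261 and 117 to 197 in the HuRHep-/- livers. The mesothelial gene Upk3b had 187, 183 and 68.0 against 164, 293 and 288, and Bmf, a pro-apoptotic gene, had 412, 546 and 158 against 354, 324 and 329. None of these genes passed with 6 libraries, and none passed without WT replicate 3.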

How the data were processed

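Whole-liver RNA of 12 libraries (3 per genotype label and diet) was sequenced. Per the labels, RNA was taken with Direct-zol columns, had a RIN above 6.0 and was made into NEBNext directional libraries, and the authors aligned reads in CLC Genomics Workbench to RefSeq GRCm38.p6 (mm10). The version was not given in the sources used here. The deposited values are raw read counts per gene, 1 table per diet, written as text with digit-grouping commas, which were removed. The log-scale test below was used, and no count model was run. Columns left unused numbered 0.

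Counts were turned into log2 CPM with a pseudocount of 0.5 and factors from the trimmed mean of M values (TMM), written anew. Genes entered the test if 3 or more libraries reached a CPM worth 10 counts at the median library size and the summed count was 15 or more. Groups were compared with limma 3.58.1 (trended variance, R 4.3.3), with Benjamini-Hochberg adjustment over all genes tested. The script was tested on simulated data. Fold changes of genes with few counts are drawn toward 0 by the pseudocount. Normalized counts were scaled to the median library total. Word searches used GENCODE vM21 and RefSeq sequences, with Python 3.11.15, pandas 2.3.3 and scipy 1.17.1. The share of 31-base words found in other genes was computed from GENCODE transcripts.

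The gene lists, the rules and the comparison itself were chosen with earlier results of these data known. Genes named were Elavl1, the 12 largest rises and 12 largest falls among called genes whose normalized counts averaged 100 or more, up to 5 passing members and the markers of each list, the 5 smallest p for the diets, and 5 genes of each kind for the role of WT replicate 3. Of the 195 genes tabulated for the text, 29 were outside this rule, namely Ccl25, 17 genes that passed in all 6 leave-one-out fits, and further Mup genes and members of the lists, and were chosen after their values were seen. Some genes that the rule chose are not reported here. Alternatives were other size factors, filters, pseudocounts and weights, the replicate block, all 12 libraries, a test against the fold and each library left out.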

Additional observations from a re-analysis of the deposited data

How the results depend on the processing

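The 525 called genes (304 higher, 221 lower) became 1011 (671 and 340) with array weights, 11 (6 and 5) in a test against the 1.5-fold change itself, and 468 higher with all 12 libraries. Leaving out 1 library gave 31 to 825 called genes (8 to 551 higher, 22 to 274 lower), with fewer samples in each such fit. At an adjusted p of at most 0.05 and any fold, the 1000 genes became 2427 (1075 higher, 1352 lower) with array weights, 1685 (672 and 1013) with all 12 libraries, and 32 to 1244 (8 to 663 and 24 to 581) without 1 library. Elavl1 was at 0.38 with an adjusted p of 1 in the test against a fold and at 0.35 to 0.44 without 1 library, where it passed once. The difference between the diets went from 0 genes to 40 without WT replicate 3, and the cause was not tested. Adding the replicate number as a block gave 730 called genes (458 higher, 272 lower). The numbers are not known to mark shared litters or days, and the correlations of same-numbered deviations were 0.10, 0.21 and 0.090, each library correlating best with its own number in 3 of 3.

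The 128 tabulated genes that passed, without Elavl1, gave 1139 values outside the leave-one-out fits and the test against the fold. Of these values, 0 were reversed and 45 no longer passed. The test against the fold, which called 11 genes in all, was not counted among them. The direction turned for genes that did not pass. Plin2 was at -0.089 and Bmf at -0.026 with array weights. Without 1 library Cyp2a5 ranged from -0.14 to 0.19, Plin2 from -0.092 to 0.20, Orm3 from -0.61 to 0.23, Fos from -0.34 to 1.19 and Bmf from -0.49 to 0.40. Of 540 list medians under the alternatives, 18 moved by more than the spread. Fold changes of genes under about 10 counts per library are imprecise at this depth.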
